A study of Mus musculus with 5 samples.

Results

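The loci of 9 genes of interleukin-2 (IL-2) receptor chains, JAK kinases and STAT factors were examined in IL-2-activated mouse CD8+ T cells (CD8-TC). These genes were Il2ra, Il2rb, Il2rg, Jak1, Jak3, Stat3, Stat4, Stat5a and Stat5b. A window was drawn for each gene from 20 kb before to 20 kb after its body, and every listed region that overlapped a window was kept. This gave 28 of the 9135 Runx3-bound regions and 64 of the 18992 H3K4me1-marked regions of the study. Runx3 belongs to the RUNX transcription factors and acts in the development and function of cytotoxic T cells. H3K4me1 is a histone H3 monomethylated on a particular lysine, a modification common at enhancers.

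The cells were splenic CD8-TC of ICR mice, isolated with anti-CD8 magnetic beads, activated through the T cell receptor with anti-CD3e and anti-CD28 for 2 days and then grown for 4 days in 100 u/ml IL-2. Chromatin immunoprecipitation was done with anti-Runx3 antibody (2 libraries), non-immune rabbit serum (NIS, the background control, 2 libraries) and an antibody to H3K4me1 (the labels list 1 library, their protocol 2 repeats). All libraries came from the same activated, IL-2-grown cells, so no untreated or Runx3-deficient group entered. Each list was called once per antibody on joined reads, with no score or read number per region. The study gives read totals for each antibody, joined over libraries, but neither the reads behind a region nor the spread between repeats can be seen in the lists. Presence in a list is therefore the only measurement, and values are described beside the whole list with no test.

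IL-2 binds a receptor of an alpha chain (Il2ra, CD25, which raises affinity), a beta chain (Il2rb, shared with the IL-15 receptor) and the common gamma chain (Il2rg, shared with the receptors of several other interleukins). The beta and gamma chains carry the kinases JAK1 and JAK3, which phosphorylate STAT5A and STAT5B, and the phosphorylated STAT dimers enter the nucleus and bind DNA. In T cells Il2ra is itself a known STAT5 target, while STAT3 and STAT4 are known best for signals of other cytokines such as IL-21 and IL-12.

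The sequences below show the DNA under Runx3 at the receptor chains and in introns of Jak1, Stat3, Stat4 and Stat5b. All are read on the plus strand of mm9, outside untranslated regions. Capitals mark the RUNX motif and, where present, the STAT motif, on either strand. The RUNX motif is TGTGGT, with C allowed in place of the second or the third T. The STAT motif is TTCNNNGAA. The first 4 stretches are from Il2ra and were chosen, apart from the last of them, to show where STAT motifs or the gene start lie in its Runx3-bound regions.
Il2ra 16.7 kb upstream, chr2:11547635-11547834: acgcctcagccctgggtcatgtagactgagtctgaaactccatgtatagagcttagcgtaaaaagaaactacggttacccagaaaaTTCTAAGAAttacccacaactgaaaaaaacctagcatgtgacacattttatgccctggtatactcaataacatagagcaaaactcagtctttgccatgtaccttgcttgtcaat
Il2ra 13.0 kb upstream, chr2:11551340-11551539: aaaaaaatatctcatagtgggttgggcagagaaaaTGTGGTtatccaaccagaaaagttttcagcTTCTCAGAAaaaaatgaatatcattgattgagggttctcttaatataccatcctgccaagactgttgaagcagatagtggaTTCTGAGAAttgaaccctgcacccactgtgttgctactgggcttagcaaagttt
Il2ra just upstream of its start, chr2:11564219-11564418: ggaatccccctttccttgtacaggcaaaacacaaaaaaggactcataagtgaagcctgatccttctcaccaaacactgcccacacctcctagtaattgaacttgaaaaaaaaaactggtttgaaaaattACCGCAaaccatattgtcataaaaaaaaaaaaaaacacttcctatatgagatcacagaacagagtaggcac
Il2ra intron 1, chr2:11576969-11577168: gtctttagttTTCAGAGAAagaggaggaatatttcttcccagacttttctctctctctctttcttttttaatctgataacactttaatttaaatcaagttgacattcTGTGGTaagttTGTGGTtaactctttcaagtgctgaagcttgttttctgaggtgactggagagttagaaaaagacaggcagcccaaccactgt
Il2rb just upstream of its start, chr15:78325497-78325696: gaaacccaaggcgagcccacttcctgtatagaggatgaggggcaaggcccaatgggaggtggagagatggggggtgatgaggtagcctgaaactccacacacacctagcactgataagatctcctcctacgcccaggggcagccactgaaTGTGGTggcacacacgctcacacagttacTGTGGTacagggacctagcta
Il2rg upstream, chrX:98464178-98464377: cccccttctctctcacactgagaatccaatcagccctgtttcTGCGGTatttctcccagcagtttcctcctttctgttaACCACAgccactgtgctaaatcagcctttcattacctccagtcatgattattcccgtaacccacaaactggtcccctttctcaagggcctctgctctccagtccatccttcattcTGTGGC
Jak1 intron 4, chr4:100860112-100860311: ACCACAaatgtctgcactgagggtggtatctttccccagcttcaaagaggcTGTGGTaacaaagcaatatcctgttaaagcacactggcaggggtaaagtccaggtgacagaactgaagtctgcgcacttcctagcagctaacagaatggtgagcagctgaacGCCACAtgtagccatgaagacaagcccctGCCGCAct
Stat3 intron 1, chr11:100798264-100798463: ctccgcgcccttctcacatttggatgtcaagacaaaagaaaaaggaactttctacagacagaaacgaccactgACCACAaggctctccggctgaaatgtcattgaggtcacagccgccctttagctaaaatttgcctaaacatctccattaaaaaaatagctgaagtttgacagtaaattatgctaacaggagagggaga
Stat4 intron 4, chr1:52076860-52077059: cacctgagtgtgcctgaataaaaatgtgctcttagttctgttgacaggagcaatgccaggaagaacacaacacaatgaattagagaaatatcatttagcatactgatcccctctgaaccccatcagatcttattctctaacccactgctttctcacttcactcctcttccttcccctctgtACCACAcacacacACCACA
Stat5b intron 3, chr11:100665970-100666169: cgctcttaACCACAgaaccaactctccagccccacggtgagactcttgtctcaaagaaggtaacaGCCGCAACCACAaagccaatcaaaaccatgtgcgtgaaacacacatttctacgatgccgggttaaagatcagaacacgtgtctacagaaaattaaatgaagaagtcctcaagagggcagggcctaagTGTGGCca

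Runx3 was listed at 8 of the 9 genes, against 34.1% of the 22380 protein-coding genes with windows drawn in the same way, and Stat5a was the exception. H3K4me1 was listed at all 9, against 39.3% of protein-coding genes, but at Il2rg and Stat5a only outside the gene body. The members' windows were longer, with a median of 90.4 kb against 55.4 kb. Without any extension, Runx3-bound regions overlapped the bodies of the same number of genes, 8 of 9, against 18.0% of all. Leaving out the extension does not remove the difference in length, whose part in these shares was not tested. Il2ra and Stat4 had the most regions, 6 each, Jak1 had 5, Il2rb and Stat5b had 3 each, Il2rg and Jak3 had 2 each and Stat3 had 1. Of the 28 regions, 20 overlapped a member's body and 8 lay outside.

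**Figure D1:**
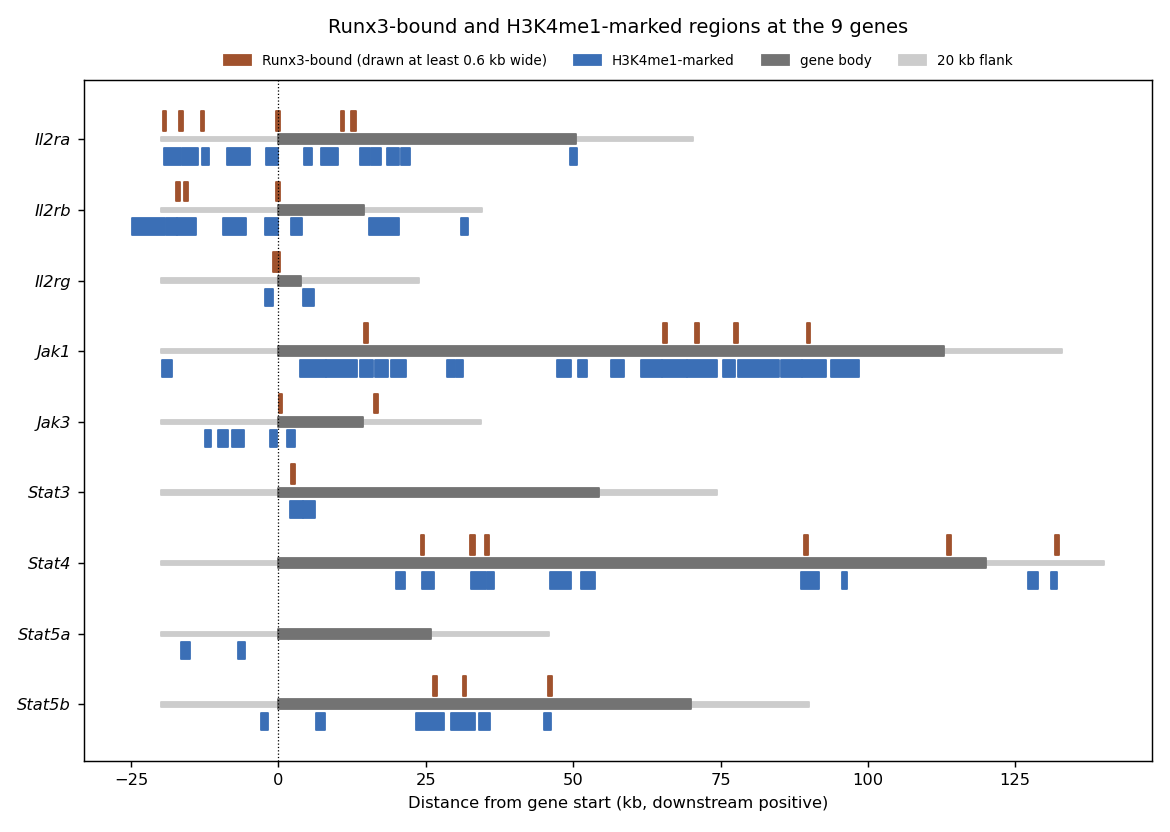
Each row is a gene drawn from its start, with distance in kb on the horizontal axis and the 20 kb flanks in light grey. Brown bars are the 28 Runx3-bound regions and blue bars the H3K4me1-marked regions, with bars at the start in Il2ra, Il2rb, Il2rg and Jak3 and in the body of Jak1, Stat3, Stat4 and Stat5b.

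The 3 receptor chains and Jak3 had a Runx3-bound region centred under 1 kb from their own start, and the other 5 genes had none. Among protein-coding genes, 8.83% had such a region. Over the regions, 8 of 28 lay under 1 kb from any annotated transcript start (28.6%, 95% Wilson interval 15.3 to 47.1), against 26.3% of the Runx3 list. The interval covers counting error among regions only. These 8 were not all nearest to a member's own start. Among them were regions nearest to the starts of the predicted genes Gm17490 and Gm20489 and of a small RNA in intron 4 of Jak1. Over all 28 regions, 18 had a member's start as their nearest protein-coding start and 10 had that of another gene.

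Il2ra (chr2:11564419-11614818, plus strand) had 3 Runx3-bound regions upstream, 1 at its start and 2 in intron 1. The region at the start, chr2:11563983-11564721, was centred 0.07 kb upstream. It held 1 RUNX motif, of the variant TGCGGT, and was H3K4me1-marked along 384 bp of its 739 bp. Upstream, the region 19.5 kb away (chr2:11544750-11545162) had 2 RUNX motifs and was marked along 144 bp. The next, 16.7 kb away (chr2:11547582-11547889), was the narrowest of all 28 at 308 bp, was marked in full and was the only one with no RUNX motif. It lay 156 bp from the start of the predicted gene Gm17490, and a STAT motif lay 10 bp from its centre. The region 13.0 kb away (chr2:11551232-11551649) had 1 RUNX motif and 2 STAT motifs, 31 bp and 50 bp to either side of its centre. All 3 upstream regions were therefore marked, and each lay nearer to the start of Gm17490 or of Gm17355, another predicted gene, than to that of Il2ra.

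Both Runx3-bound regions in intron 1 of Il2ra had no H3K4me1 overlap. They were centred 10.87 kb (chr2:11575011-11575563) and 12.65 kb (chr2:11576643-11577495) downstream of the start. Both stood in a gap of 3815 bp between marked regions, 550 bp and 780 bp from the nearer edge. The first had 1 RUNX motif. The second had 2 RUNX motifs, 2 STAT motifs and 1 AP-1 motif.

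**Figure D2:**
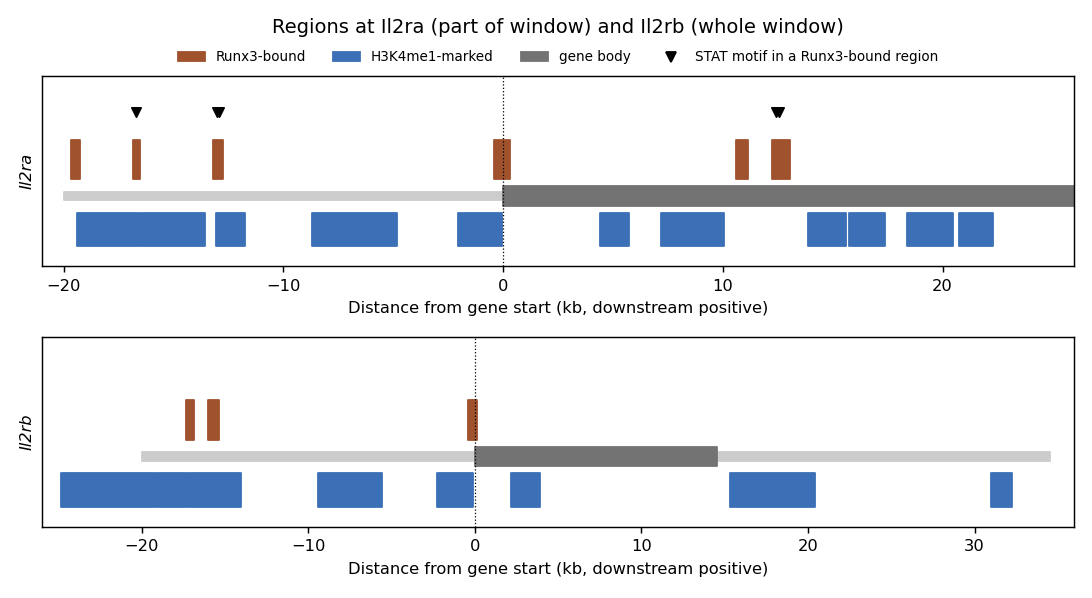
Distance from the gene start in kb runs along the horizontal axis of both panels, with Runx3-bound regions in brown, H3K4me1-marked regions in blue and the gene body in dark grey. Triangles mark STAT motifs in Runx3-bound regions, 5 at Il2ra and 0 at Il2rb, and the 2 intron regions of Il2ra stand between marked regions.

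Il2rb (chr15:78310983-78325496, minus strand) had a Runx3-bound region at its start and a pair upstream, all 3 overlapping H3K4me1. At the start, chr15:78325343-78325921 was centred 0.14 kb upstream, held 3 RUNX motifs and was marked along 327 bp. The upstream pair, chr15:78340864-78341522 and chr15:78342342-78342803, lay 15.7 kb and 17.1 kb from the start. They had 4 and 3 RUNX motifs, so each Il2rb region had more than the median of 2 per region in the whole Runx3 list. The farther region covered the 15 bp between a pair of marked regions. No STAT or AP-1 motif was found in these 3 regions.

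Il2rg (chrX:98459717-98463594, minus strand) had its 2 Runx3-bound regions within 1 kb of the start, 97 bp apart and neither marked. The first, chrX:98463324-98463855, was centred 0.01 kb from the start and had 1 RUNX and 5 ETS motifs. The second, chrX:98463953-98464469, lay 0.62 kb upstream, in an intron of the predicted gene Gm20489, and had 3 RUNX motifs. An H3K4me1-marked region lay 50 bp from the second and 664 bp from the first.

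Jak1 (chr4:100824972-100937887, minus strand) differed in layout from the receptor chains, in that its 5 Runx3-bound regions were all in introns. All 5 overlapped H3K4me1, as did all 3 at Il2rb and all 3 at Stat5b. The one nearest to the start, chr4:100922930-100923295, was centred 14.78 kb downstream in intron 1 with 1 RUNX motif. The other 4 lay 65.51 to 89.83 kb downstream, at chr4:100872160-100872597 and chr4:100866602-100867226 in intron 1, chr4:100859866-100860625 in intron 4 and chr4:100847833-100848272 in intron 8. The region in intron 4 had 5 RUNX motifs, as many as any of the 28, along with 4 ETS, 1 AP-1 and 1 STAT motif. It reached over a gap of 451 bp between a pair of marked regions, and its centre was in that gap.

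Jak3 (chr8:74200195-74214474, plus strand) had 2 Runx3-bound regions, neither marked, and they were GC-rich. At the start, chr8:74200257-74200654 was centred 0.26 kb downstream, 118 bp from the start of the predicted gene Gm9933 and in a coding exon of it. It had 3 RUNX and 4 ETS motifs, and its central 200 bp had 71.5% GC, the highest of the 28 regions, whose median was 46.8%. The other, chr8:74216410-74216774, lay 16.40 kb downstream in a coding exon of B3gnt3, with 66.5% GC and 13405 bp from the nearest marked region. Its nearest protein-coding start was that of Insl3, 3.48 kb away.

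Stat3 (chr11:100746412-100800854, minus strand) had 1 Runx3-bound region, chr11:100798073-100798655, in intron 1 and 2.49 kb downstream of the start. It was marked in full and had 1 RUNX and 1 ETS motif.

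Stat4 (chr1:52043992-52164032, plus strand) had 5 Runx3-bound regions in its body and 1 beyond its end. In intron 2, chr1:52068160-52068621 had 1 RUNX and 5 ETS motifs and was marked. It lay 3302 bp from the nearest annotated transcript start, that of a protein-coding Stat4 transcript. Intron 4 held chr1:52076421-52077370, at 950 bp the widest of the 28 regions, with 4 RUNX and 7 ETS motifs, and farther on chr1:52079105-52079618, with 3 RUNX motifs and 1 AP-1 motif. Both were marked, and the latter covered a gap of 157 bp in the mark. A coding exon of Stat4 held the centre of chr1:52133229-52133805, which was marked, and intron 18 held chr1:52157414-52157858, which was 13276 bp from the nearest marked region. Both had the start of Gm3940 as their nearest protein-coding start, 14.4 kb and 9.73 kb away. The region beyond the end, centred 132.13 kb downstream of the start, was marked along 248 bp, and both of its RUNX motifs were TGCGGT.

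Stat5b (chr11:100642045-100712038, minus strand) had 3 Runx3-bound regions in introns, all overlapping H3K4me1 and 26.56 to 45.97 kb downstream of the start. They were chr11:100685147-100685803 with 3 RUNX motifs, chr11:100680251-100680766 in intron 1 with 2, and chr11:100665838-100666303 in intron 3 with 5. The first and second lay 1633 bp and 3334 bp from the nearest annotated transcript start, that of a protein-coding Stat5b transcript. The first was in no intron of the transcript used for numbering. With 1 start per protein-coding gene, the last was nearest to the start of Ghdc, 33.8 kb away. In the last, 79.2% of 32-base words occurred once in the genome, the lowest share of the 28 regions, of which 22 were at 100%. Stat5a (chr11:100720665-100746483, plus strand), its neighbour in the opposite orientation, had no Runx3-bound region in its window. Of the window of Stat5a, 92.9% was unique by this measure, and of the windows of all 9 genes 90.3% to 96.7%. Uniquely aligned reads could thus be placed in most of each window, and absence from the list means only that no peak was called in the joined reads.

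H3K4me1-marked regions were most numerous at Jak1 (19), Il2ra (12) and Stat4 (10), followed by Il2rb (8), Stat5b (6) and Jak3 (5). Il2rg, Stat3 and Stat5a had 2 each, and the 2 of Stat5a were shared with the overlapping window of Stat5b. As a share of the window, cover was highest at Jak1 (40.2%), Il2rb (36.8%) and Il2ra (28.1%). Such cover or more was found at 0.147%, 0.246% and 0.675% of protein-coding genes. Cover was 13.5% at both Jak3 and Stat5b, 12.3% at Stat4 and 7.34% at Il2rg, and lowest at Stat3 (4.33%) and Stat5a (4.13%). Jak1, Il2rb and Il2ra thus stood apart from the other 6 genes, with no value between 13.5% and 28.1%. Cover is that of the whole window, with its flanks and any neighbouring genes. At Il2rb and Jak3 most of the marked stretch lay outside the gene body, and at Il2rg and Stat5a all of it did. The widest marked region, 7106 bp, was in Jak1, and 0.484% of the list was as wide. At Il2rb the widest was 5624 bp, most of it beyond the end of the window, and the widest wholly inside was 5128 bp. At Stat5b the widest was 4840 bp. The median over the 64 regions was 2020 bp, against 1592 bp in the list.

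Counted per 100 kb of window, Runx3-bound regions were densest at Il2ra (6.64), Il2rb (5.50) and Il2rg (4.56), the receptor chains. Densities as high were found at 1.10%, 2.02% and 3.59% of protein-coding genes. With regions closer than 1 kb merged, only Il2ra stayed ahead, since Il2rb fell to 3.67 and Il2rg to 2.28, below Stat4 and Jak3. Among the kinases and STATs, whose densities merging left as they were, Stat4 stood at 3.75, Jak3 at 3.68, Jak1 at 3.27, Stat5b at 2.73, Stat3 at 1.06 and Stat5a at 0. The order of Stat4, Jak3, Jak1 and Stat5b rests on 2 to 6 regions each, and 1 region more or fewer would change it. Jak1 had the highest H3K4me1 cover with a middle Runx3 density, and Il2rg had 2 adjacent regions in a short window with little mark.

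**Figure D3:**
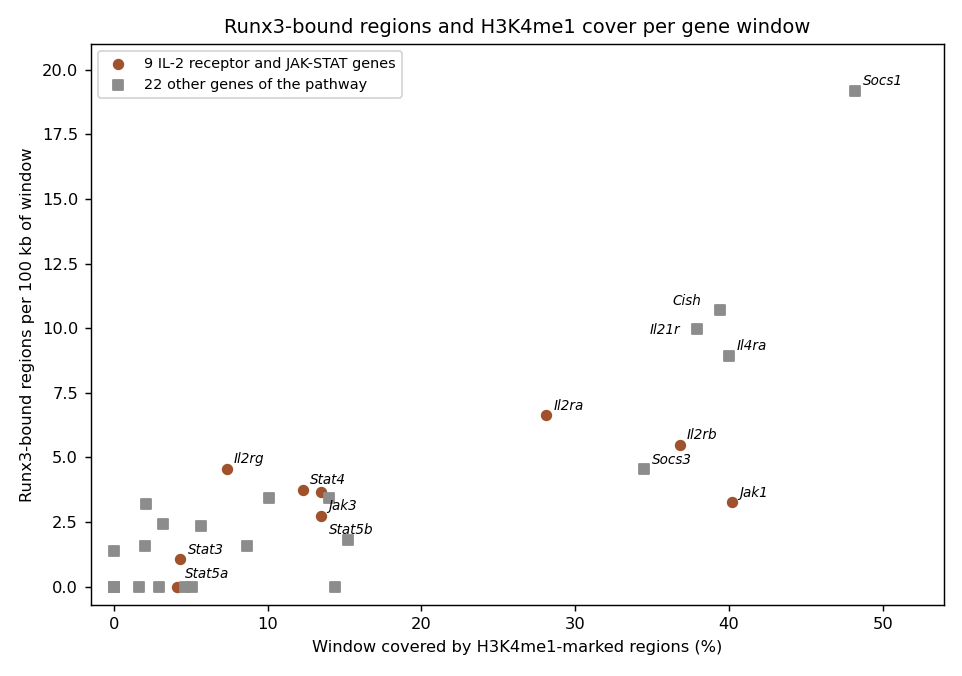
Each point is a gene window, with the percent of it covered by H3K4me1-marked regions on the horizontal axis and Runx3-bound regions per 100 kb on the vertical axis. Il2ra (28.1%, 6.64), Il2rb (36.8%, 5.50) and Jak1 (40.2%, 3.27) stand to the right of the other 6 members, and Socs1 (48.2%, 19.2) is highest of the 22 other genes of the pathway.

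Of the 28 Runx3-bound regions, 21 overlapped an H3K4me1-marked region by at least 1 bp (75.0%, 95% Wilson interval 56.6 to 87.3), against 57.3% of the Runx3 list. The share of the list lay inside the interval. The 7 regions without overlap were the 2 in intron 1 of Il2ra, both at Il2rg, both at Jak3 and the one in intron 18 of Stat4. Within 1 kb of a start, 5 of 8 regions overlapped the mark (62.5%, interval 30.6 to 86.3), against 480 of 2404 in the list (19.97%), which is below the interval. At 1 kb or more, 16 of 20 did (80.0%, interval 58.4 to 91.9), against 70.6% in the list. Among those 5 were the regions at the starts of Il2ra, Il2rb and Gm17490 and at that of a small RNA annotated in intron 4 of Jak1. At the starts of Il2ra and Il2rb the region was marked along part of its length. Seen from the mark, 22 of 64 marked regions held a Runx3-bound region (34.4%, interval 23.9 to 46.6), against 29.2% of the H3K4me1 list. Of these, 21 held a Runx3-bound region of the windows.

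A RUNX motif was present in 27 of 28 regions (96.4%, interval 82.3 to 99.4), against 92.6% of the list. The 28 regions held 60 RUNX motifs, of which 36 were TGTGGT, 11 TGTGGC, 7 TGCGGT and 6 TGCGGC. By region, TGTGGT was in 75.0% against 69.6% of the list, TGTGGC in 32.1% against 45.7%, TGCGGT in 21.4% against 20.8% and TGCGGC in 17.9% against 16.3%. The last 3 shares rest on 9, 6 and 5 regions, so their order is not firm. At least 2 RUNX motifs were in 57.1% of regions, against 67.3% of the list, and the median was 2 per region in both.

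The ETS motif, GGAA preceded by A or C and followed by A or G, marks sites of the ETS factors that are abundant in T cells. It was in 25 of 28 regions (89.3%, interval 72.8 to 96.3), against 88.9% of the list. The AP-1 motif, TGACTCA or TGAGTCA, was in 3 regions, 1 each at Il2ra, Jak1 and Stat4 (10.7%), against 13.5% of the list. Matches to these motifs, searched on both strands, are descriptions of the sequence and not evidence of binding by the factor. For each motif the share in the list lay inside the interval of the members.

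A STAT motif was in 5 of 28 regions (17.9%, interval 7.88 to 35.6), against 21.5% of the list, so over all 9 genes it was not more frequent than elsewhere in the list. With this spelling the 7 matches lay at 2 genes, 5 in 3 of the 6 regions of Il2ra and 2 in 2 regions of Jak1. When 2 to 4 bases were allowed in place of NNN, 12 of 28 regions held a match (42.9%), against 40.4% of the list, and the restriction to these genes was lost. The 12 regions were 4 at Il2ra, 4 at Stat4, 3 at Jak1 and 1 at Il2rb. With 3 bases between, the matched letters at Il2ra were TTCTAAGAA in the region 16.7 kb upstream, TTCTCAGAA and TTCTGAGAA in that 13.0 kb upstream, and TTCTCAGAA and TTCAGAGAA in intron 1. At Jak1 they were TTCCTTGAA and TTCCCTGAA. Among the H3K4me1-marked regions, 37 of 64 held a STAT motif (57.8%, interval 45.6 to 69.1), against 45.2% of the list. The AP-1 motif was in 31 of 64 (48.4%, interval 36.6 to 60.4), against 34.2%. In both cases the share of the list lay below the interval, and the members' marked regions were also wider than those of the list, with medians of 2020 bp and 1592 bp, whose part in these shares was not tested.

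**Figure D4:**
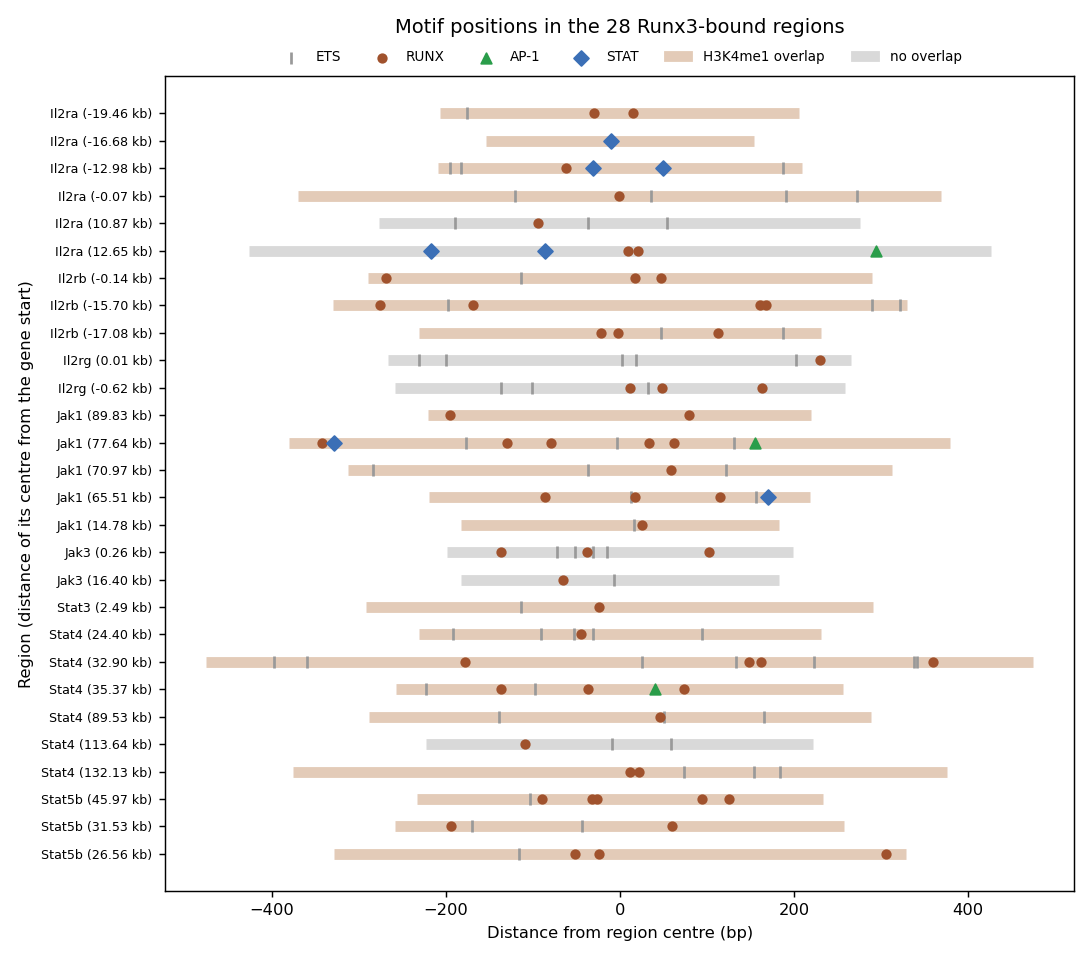
Each row is 1 of the 28 Runx3-bound regions, labelled by gene and distance of its centre from the gene start, with bp from the region centre on the horizontal axis. Circles are the 60 RUNX motifs, diamonds the 7 STAT motifs (5 at Il2ra, 2 at Jak1), triangles the 3 AP-1 motifs and grey ticks the ETS motifs, and bars in grey are the 7 regions without H3K4me1 overlap.

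**Figure D5:**
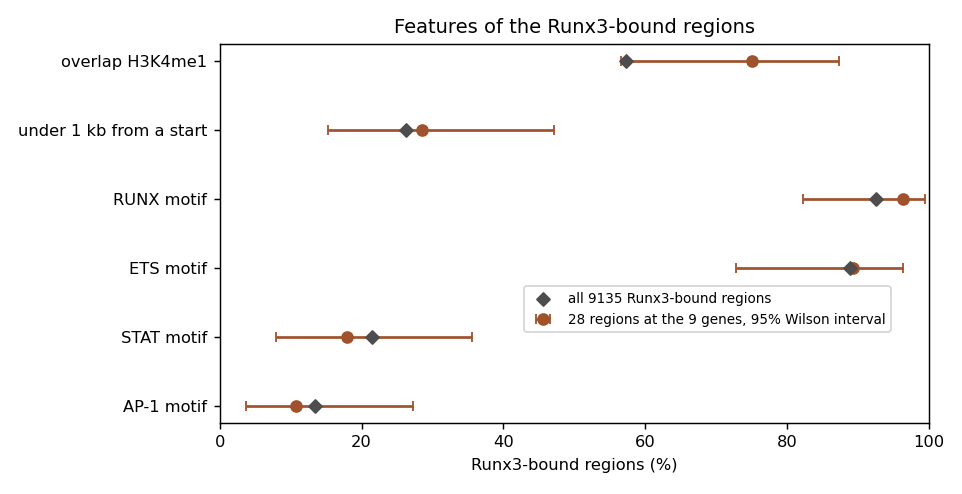
Percent of Runx3-bound regions with each feature is on the horizontal axis, as circles with 95% Wilson intervals for the 28 regions of the 9 genes and as diamonds for all 9135 regions. The diamonds lie inside the intervals for all 6 features, among them H3K4me1 overlap (75.0% against 57.3%) and the STAT motif (17.9% against 21.5%).

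By width, the 28 regions were like the list, with a median of 516 bp (308 to 950) against 521 bp. Their centres were in introns of any gene (17), between genes (7), in coding exons (3) and in an untranslated region (1). The median distance to the nearest annotated start of any transcript was 3.51 kb, against 7.02 kb in the list. These medians are not a like-for-like comparison, since member regions were kept for lying in or near a gene. Regions far from any gene could enter only the list. The largest distance among the 28 was 17.8 kb, below the upper quartile of the list, 22.3 kb. How much of the shorter median came from this selection was not tested.

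Among 22 other genes of the pathway, 14 had a Runx3-bound region in a window of the same kind, again to be read beside 34.1% of protein-coding genes. Inhibitors of the pathway were bound at 5 of 6 genes. Socs1, a suppressor of JAK activity, had 8 regions (19.2 per 100 kb), a density reached by 0.00894% of protein-coding genes. Cish, a STAT5 target that dampens IL-2 signals, had 5 (10.7 per 100 kb). Socs3 and the phosphatase gene Ptpn6 had 2 each, Socs2 had 1 and the phosphatase gene Ptpn2 had 0. Of the ligands and other receptors of the common gamma chain family, 5 of 11 were bound. The receptor genes Il21r and Il4ra, whose windows overlap and share 4 regions, had 7 and 6, while Il7r, Il4 and Il9 had 1 each and Il2, Il7, Il15, Il21, Il9r and Il15ra had 0. Of the other kinase and STAT genes, Stat2 and Stat6 had 2 each and Tyk2 had 1, with 0 at Jak2. The median density was 3.68 per 100 kb over the 9 members, 1.69 over the 22 other genes and 0 over all protein-coding genes. All densities in this paragraph were counted without merging close regions, which had lowered those of Il2rb and Il2rg.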

How the data were processed

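Runx3 and H3K4me1 ChIP-seq of activated CD8-TC was analysed from 2 peak lists. Per the labels and methods, the authors aligned reads to mm9, joined the repeats of each antibody and called peaks with MACS against joined NIS reads. The lists as deposited gave each region by its start and end in bp, with 0 columns of scores or of per-sample values left out. The study states read totals joined per antibody, which were not analysed here, and depth per library was not used. Joining hides the spread between repeats.

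Regions were counted from 1 on NCBIM37, the mm9 assembly, within whose chromosomes all ended, with GENCODE vM1. Windows were gene bodies extended by 20 kb, overlap was at least 1 bp, intervals were 95% Wilson, and distances ran from region centres. Introns were numbered in the transcript with the longest coding sequence. Uniqueness counted 32-base words. RefSeq tables, of another build, were not used. Functions were tested on simulated data. Python 3.11.15, NumPy 2.4.6, SciPy 1.17.1, statsmodels 0.14.6 and matplotlib 3.10.9 were used.

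The genes, lists and motifs were chosen with earlier results of these data known. The rule named all 9 members with every Runx3-bound region, genes whose start was nearer to a region, and the fixed list of 22 pathway genes. The counts cover all 22, of which 1 is not reported here by name. B3gnt3, which holds the centre of a Jak3 region, was named after the values were seen. Each member's sequence, except that of Il2rb, came from its region with the most RUNX motifs, in ties the widest. The 200 bp stretch with the most RUNX motifs outside untranslated regions was taken, in place of the centre, after the sequences were seen. The stretches with STAT motifs and those upstream of starts were likewise added then. At Il2rb the stretch upstream of the start replaced that from the region with the most RUNX motifs. No Jak3 stretch qualified. Alternatives were other extensions, merged regions, other overlaps, central windows, STAT spacings and start sets.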

Additional observations from a re-analysis of the deposited data

How the results depend on the processing

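Of 21 alternatives for 8 results, 16 stayed within the range set for no change and 5 moved. The H3K4me1-marked regions fell from 64 to 42 with no extension of the gene bodies, and also to 42 with regions closer than 1 kb merged. In the central 200 bp the share of Runx3-bound regions with a RUNX motif was 82.1% (78.8% of the list) and with an ETS motif 60.7% (66.2% of the list). With 2 to 4 bases in place of the NNN of the STAT motif, 42.9% held the motif, against 40.4% of the list. Runx3-bound regions numbered 20 to 34 over extensions of 0 to 50 kb, against 28. The lists held no scores or reads per region, so no threshold on peaks could be varied. No paired analysis was possible because each list was called on joined reads and no result comes from a test.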
